A study of Mus musculus with 6 samples.

Results

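The genes of the major histocompatibility complex (MHC, called H2 in the mouse) and their immediate partners were followed in liver RNA. The members were all rows of the expression table whose symbol begins with H2-, without H2-Ke6 and H2-Ke2, which take no part in antigen presentation, together with B2m, Tap1, Tap2, Tapbp, Nlrc5, Cd74 and Ciita. This gave 37 members among 25102 genes, of which 26 belong to the class I pathway and 11 to the class II pathway. The class I members comprised 21 heavy chain rows, the light chain B2m, the loading genes Tap1, Tap2 and Tapbp, and the transactivator Nlrc5. The class II members comprised 4 presenting chains, 6 genes of peptide loading and the transactivator Ciita. Liver was taken from male C57BL/6J mice, 2 weeks old when they were randomised, with 3 libraries from untreated controls and 3 from mice given DEN+CCl4. The treated mice had 1 mg/kg of diethylnitrosamine (DEN) once, and carbon tetrachloride (CCl4) from some 6 weeks on, at 0.2 mL/kg, 2 times a week for at most 14 weeks, both into the peritoneum. DEN is a carcinogen activated by hepatocytes and CCl4 injures the same cells, and the pair is used as a model of hepatocellular carcinoma. The labels give no age at collection and no vehicle for the controls, and they do not say whether a library holds tumour, the liver around it or both. Replicates carry only a number, so the p-values capture only how far these samples scatter, which may be technical.

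Class I molecules are a heavy chain paired with B2m that carries peptides from the inside of the cell, and almost all nucleated cells show them to CD8 T cells. The peptides are pumped into the endoplasmic reticulum by Tap1 and Tap2 and loaded with the help of tapasin, the product of Tapbp. Class II molecules pair an alpha with a beta chain, are guarded by the invariant chain Cd74 and loaded by H2-DM, and are made mainly by dendritic cells, B cells and macrophages. Nlrc5 is the main transactivator of class I genes and Ciita that of class II genes, and interferon gamma induces both. In liver, hepatocytes carry little class I on their surface but secrete the class I molecule encoded by H2-Q10.

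RefSeq promoters (GRCm38.p6) were found for 25 of the 37 members, and stretches of 126 to 140 bases upstream of the annotated start are shown for 7 genes on which the values below turn. The first 4 are class I heavy chain genes that were set against each other, and B2m, H2-Aa and H2-Eb1 are their light chain and 2 class II genes. Each runs 5′ to 3′ on its gene's strand, and capitals mark matches to 1 of 6 motifs, named after the block.
H2-K1: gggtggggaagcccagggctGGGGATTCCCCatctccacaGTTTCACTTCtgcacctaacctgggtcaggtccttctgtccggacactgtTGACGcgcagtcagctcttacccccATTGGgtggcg
H2-Q6: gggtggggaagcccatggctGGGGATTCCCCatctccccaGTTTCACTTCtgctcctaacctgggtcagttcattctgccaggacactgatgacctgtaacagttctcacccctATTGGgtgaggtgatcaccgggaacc
H2-Q7: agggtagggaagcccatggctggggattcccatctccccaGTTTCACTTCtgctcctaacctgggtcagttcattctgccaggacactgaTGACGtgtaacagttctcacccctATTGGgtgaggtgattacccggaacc
H2-Q10: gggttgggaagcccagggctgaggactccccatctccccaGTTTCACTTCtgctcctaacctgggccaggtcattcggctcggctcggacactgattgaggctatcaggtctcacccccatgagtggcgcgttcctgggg
B2m: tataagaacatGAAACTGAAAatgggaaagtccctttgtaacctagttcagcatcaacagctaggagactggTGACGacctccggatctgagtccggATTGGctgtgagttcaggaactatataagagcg
H2-Aa: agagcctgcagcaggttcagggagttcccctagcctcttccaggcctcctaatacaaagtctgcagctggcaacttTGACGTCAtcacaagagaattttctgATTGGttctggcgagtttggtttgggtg
H2-Eb1: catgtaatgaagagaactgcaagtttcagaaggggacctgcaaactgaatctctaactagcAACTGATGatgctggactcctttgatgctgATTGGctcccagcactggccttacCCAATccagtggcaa
The positions were chr17:34000353-34000478 (minus strand) for H2-K1, chr17:35424657-35424796 (plus) for H2-Q6, chr17:35439001-35439140 (plus) for H2-Q7 and chr17:35469893-35470032 (plus) for H2-Q10. They were chr2:122147537-122147666 (plus) for B2m, chr17:34287844-34287973 (minus) for H2-Aa and chr17:34305717-34305846 (plus) for H2-Eb1. In GENCODE M21 the B2m stretch lay within Patl2, a gene of the other strand, the H2-Eb1 stretch touched an exon of the antisense gene Gm20513, and the other 5 overlapped no gene.

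The motifs were searched on both strands of the 250 bases upstream of each start, among 32851 RefSeq promoters. GGGGATTCCCC, the kappa B letters of enhancer A, taken from H2-K1, occurred in 0.0304% of all promoters and in 3 members, H2-K1, H2-D1 and H2-Q6. GTTTCACTTC, the interferon response element next to it in H2-K1, occurred in 0.11% and in 7 members, H2-K1, H2-D1, H2-Q4, H2-Q6, H2-Q7, H2-Q10 and H2-M3. Counted from 1 at the first G of GGGGATTCCCC, the letters at the matching place, 20 bases before GTTTCACTTC, carried C8T in H2-Q4, and G2A and T6C in H2-Q10. In H2-Q7 the stretch up to GTTTCACTTC was 1 base shorter, at 19 bases, so its letters were not compared place by place. A looser interferon element, GAAA repeated after a gap of 2 bases, occurred in 2.98% and in B2m, H2-T22 and H2-T23. TGACG, the core of the X2 box, occurred in 17.8% of all promoters and 10 of the 25. CCAAT, the Y box core, occurred in 33.8% and 23 of the 25, the other 2 being H2-Q10 and H2-M5. AACNGATG, an X1 box core, occurred in 1.98% and in H2-Eb1, H2-Eb2, H2-DMb1 and H2-DMb2. These matches describe letters only, and no binding was measured here.

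Values were FPKM, fragments scaled by gene length and by the library's total, and no counts were used, so the depth is unknown. DEN+CCl4 replicate 3 stood apart. Transcripts of the mitochondrial genome, with 7 nuclear copies, took 85.0% of its FPKM against 38.1% to 62.1% elsewhere, and its median tested gene stood at 1.19 FPKM against 3.43 to 4.46. Of all tested genes, 7157 of 8528 lay below all 3 controls in that library. Values are therefore given as deposited and also after median-ratio scaling, in which a library's values are divided by the median, over genes, of their ratio to the gene's geometric mean. That factor was 0.3562 for DEN+CCl4 replicate 3 and between 1.156 and 1.372 for the others. Over all tested genes it moved the median log2 fold change from -0.27 to 0.02, so list medians below are read beside those values. Ratios between 2 members of the same library do not depend on this factor.

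Of the 37 members, 24 reached a mean of 1 FPKM over the 6 libraries and were tested, 18 of class I (13 heavy chains) and 6 of class II. By limma on log2(FPKM + 1), 0 of these 24 were called higher and 0 called lower after DEN+CCl4 at an adjusted p under 0.05, and 0 had an unadjusted p under 0.05. The smallest adjusted p by limma was 0.843, for H2-Bl. Over all 8528 genes, 0.833% were called higher and 0.645% lower, and at an unadjusted p under 0.05 the shares were 2.53% and 5.07%. After median-ratio scaling limma again called 0 members, against 0% higher and 0% lower over all genes. At an unadjusted p under 0.05 limma then had 2 members higher, H2-Q1 and H2-T10 (adjusted p = 0.453 for both), and 0 lower, against 5.60% and 5.13% of all genes. H2-Q1 reached the filter only through its treated libraries (mean 0.780 FPKM in controls and 1.87 FPKM after DEN+CCl4), and H2-Bl only through its controls (1.94 and 0.933 FPKM), so neither gives support from having been tested. The 95% intervals were wide: their median half-width over the 24 was 1.64 on the log2 scale as deposited and 0.963 after scaling. The count of 0 therefore does not show that the members were unchanged.

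The point estimates leaned above those of the average gene. The median log2 fold change was 0.12 over the 18 class I members and 0.03 over the 6 of class II, against -0.27 over all genes. After median-ratio scaling it was 0.51 and 0.45 against 0.02. Class I had 12 of 18 members with a positive value as deposited and 16 after scaling, and class II 4 of 6 and then 6. Over all 37 rows, tested or untested, the DEN+CCl4 mean was the higher for 27 as deposited and for 32 after scaling. No matching count over all genes stands beside these counts. Many heavy chain rows also share sequence, as described below, so the rows are not separate readings. The 3 DEN+CCl4 libraries lay wholly above the controls for 1 of the 24, H2-Q1, the row tested only through these libraries, against 3.01% of all tested genes, and wholly below for 0, against 5.35%. After scaling 3 lay wholly above, H2-Q1, H2-Q7 and H2-Eb1, against 8.07%, and 0 below, against 6.43%. An exact permutation test of 3 against 3 libraries cannot go below p = 0.1.

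**Figure D1:**
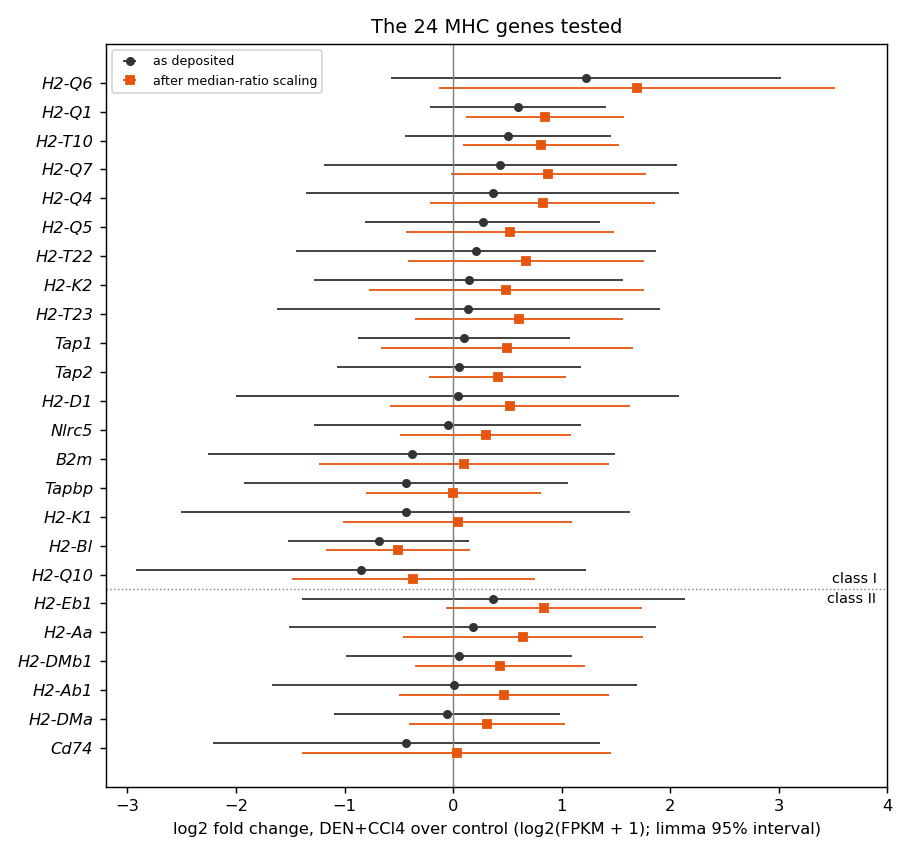
Log2 fold change of DEN+CCl4 over control on log2(FPKM + 1) for the 24 tested members, as deposited and after median-ratio scaling, with limma 95% intervals. As deposited every interval includes 0, H2-Q6 lies farthest right at 1.23, and scaling moves all points to the right.

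Which library carried the shift depended on the scale. As deposited, DEN+CCl4 replicate 2 had 13 of 18 class I and 5 of 6 class II members above all controls, where 3849 of 8528 genes of any kind lay above. Replicate 3 had 12 and 5 below all controls, where 7157 of 8528 genes of any kind lay below. After median-ratio scaling replicate 3 turned from lowest to highest, with 13 of 18 and 5 of 6 above all controls, where 3184 of 8528 genes of any kind lay above. Relative to the control mean, the class I median was then 0.13, 0.42 and 0.89 in DEN+CCl4 replicates 1, 2 and 3, and the class II median 0.14, 0.04 and 1.19. Without DEN+CCl4 replicate 3 the medians as deposited were 0.44 for class I and 0.21 for class II, against 0.115 over all genes. The smallest adjusted p of a member was then 0.614 (limma). After scaling and without that replicate the medians were 0.28 and 0.07. The scaled class II median thus rested on 1 library, and the part its mitochondrial share plays was not tested.

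The classical heavy chains H2-K1 and H2-D1, which present to CD8 T cells, were among the abundant members. Values are given in the order of replicates 1, 2 and 3, and a replicate named alone is a DEN+CCl4 one. H2-K1 (chromosome 17, 33996017 to 34000347, minus strand) read 333, 269 and 330 FPKM in the controls, against 368, 306 and 105 FPKM after DEN+CCl4. Replicate 3 was the lowest of the 6 and replicate 1 the highest, so the groups overlapped (log2 fold change -0.44, 95% interval -2.50 to 1.63, limma adjusted p = 0.996). After scaling, the H2-K1 difference was 0.04 (-1.01 to 1.10). H2-D1 (35262730 to 35267499, plus strand) read 173, 92.0 and 144 FPKM in the controls, against 175, 181 and 78.9 FPKM after DEN+CCl4. Again replicate 3 was lowest and the other treated libraries lay just above the highest control. Its log2 fold change was 0.04 (-2.0 to 2.08), and 0.52 (-0.58 to 1.63) after scaling.

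H2-Q10, which encodes the secreted class I molecule of hepatocytes, was as abundant as H2-K1 in controls. It lies at 35470089 to 35474563 on the plus strand of chromosome 17. The controls read 401, 247 and 337 FPKM and the DEN+CCl4 libraries 256, 374 and 59.3 FPKM. Replicate 3 was the lowest library by far, and the other treated libraries lay inside the control range. The log2 fold change was -0.85 (-2.92 to 1.23; limma adjusted p = 0.996), the lowest of the 24, and -0.37 (-1.49 to 0.75) after scaling. Without DEN+CCl4 replicate 3 it was -0.06.

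The non-classical H2-Q genes other than H2-Q10 had positive fold changes in 5 of 5 tested rows. Their median was 0.43, and 0.85 after scaling. H2-Q1 among them reached the filter only through its treated libraries, which favours a positive sign. These rows also share sequence, so they are not 5 separate readings, and no matching count over all genes stands beside theirs. As deposited the direction of H2-Q7 and H2-Q5 rested on DEN+CCl4 replicate 2. Without it H2-Q7 was at -0.14, H2-Q5 at -0.43, H2-Q4 at 0.01 and H2-Q6 at 0.80, and H2-Q1 fell short of the filter. The median over all genes was then -0.52. After scaling and without that replicate all 5 stayed positive. H2-Q7 was then at 0.655, H2-Q5 at 0.08, H2-Q4 at 0.83, H2-Q6 at 1.64 and H2-Q1 at 0.73. H2-Q6 and H2-Q7 encode Qa-2 molecules, H2-Q4 a further heavy chain of that region. H2-Q6 (35424850 to 35430055, plus strand) read 15.03, 31.6 and 18.1 FPKM in the controls, against 22.0, 89.6 and 60.4 FPKM after DEN+CCl4. DEN+CCl4 replicates 2 and 3 were above every control and replicate 1 was inside their range. The log2 fold change of 1.23 was the highest of the 24 (-0.57 to 3.02; limma adjusted p = 0.957), and it was 1.70 (-0.13 to 3.52; limma adjusted p = 0.477) after scaling. In DEN+CCl4 replicate 3, where most members were below the controls as deposited, H2-Q6 was above all of them, and scaled it stood at 170 FPKM against 12.9 to 27.3 in controls.

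H2-Q7 (35439155 to 35443773, plus strand) read 15.4, 16.7 and 13.2 FPKM in the controls, against 19.2, 46.8 and 9.53 FPKM after DEN+CCl4. Replicate 2 was the highest and replicate 3 the lowest of all 6 as deposited. After scaling all treated libraries lay above the controls, at 15.03, 34.1 and 26.8 against 13.2, 14.5 and 10.5 FPKM (log2 fold change 0.88, -0.02 to 1.77; limma adjusted p = 0.465). H2-Q4 (35379617 to 35385290) read 15.6, 31.9 and 19.2 FPKM against 26.9, 45.9 and 17.1 FPKM. Its highest value was again in replicate 2, and its difference was 0.37 (-1.35 to 2.08). H2-Q1, a low heavy chain row, read 0.96, 0.56 and 0.82 FPKM against 1.12, 3.42 and 1.06 FPKM. Each treated library was above each control, by little in replicates 1 and 3 (0.60, -0.21 to 1.41; limma adjusted p = 0.934; 0.85 after scaling). H2-Q5, annotated as a polymorphic pseudogene, read 1.86 to 3.54 FPKM in the controls, against 3.00, 10.7 and 0.86 FPKM after DEN+CCl4.

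**Figure D2:**
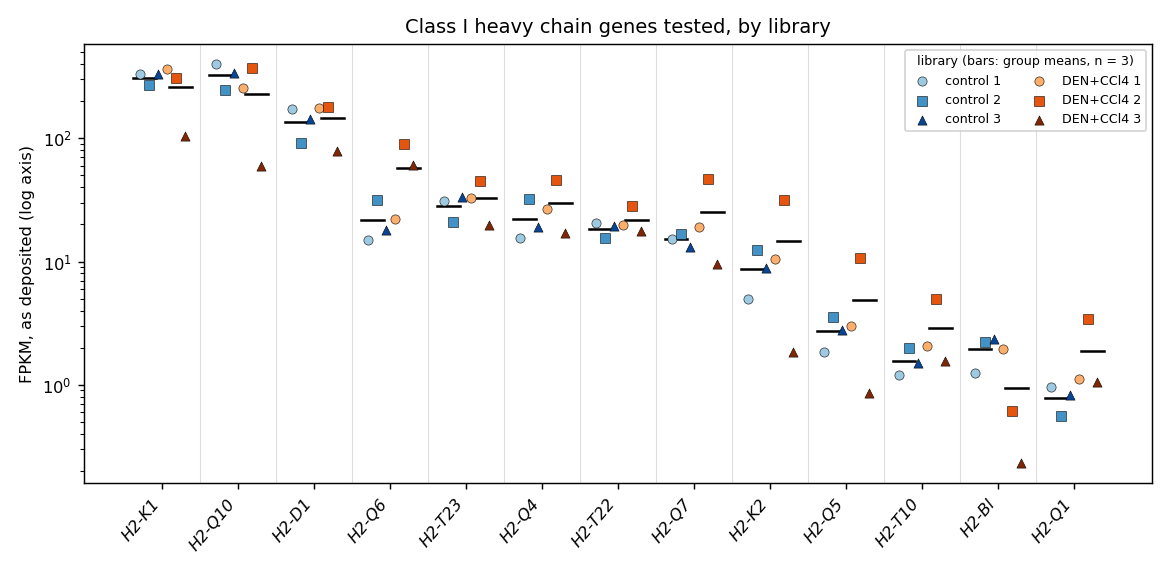
FPKM as deposited (log axis) of the 13 tested class I heavy chain rows in the 6 libraries, with bars at the group means (n = 3). DEN+CCl4 replicate 3 is the lowest point for H2-K1, H2-D1 and H2-Q10 and above all controls for H2-Q6.

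Among the H2-T genes, H2-T23 encodes Qa-1, which presents signal peptides of other class I molecules to receptors on natural killer cells. It lies at 36029773 to 36032855 on the minus strand and read 30.9, 20.8 and 33.7 FPKM in the controls, against 33.0, 44.6 and 19.9 FPKM after DEN+CCl4. Replicate 2 was highest and replicate 3 lowest (0.14, -1.62 to 1.91; 0.61 after scaling). H2-T22 (36037128 to 36042747, minus strand) and the neighbouring H2-T10, ligands of a subset of gamma delta T cells, are near copies. H2-T10 is annotated as a polymorphic pseudogene. H2-T22 read 20.4, 15.6 and 19.6 FPKM against 19.7, 28.0 and 17.8 FPKM (0.21, -1.44 to 1.87; 0.67 after scaling). Only replicate 2 left the control range for H2-T22. H2-T10 read 1.21, 1.97 and 1.49 FPKM against 2.08, 4.96 and 1.55 FPKM (0.51, -0.44 to 1.46; limma adjusted p = 0.996). It differed by 0.81 (0.09 to 1.53) after scaling, an interval without 0 that did not hold after adjustment (limma adjusted p = 0.453). H2-Bl, a polymorphic pseudogene, was 1 of the 3 heavy chain rows with a negative value, at 1.24, 2.22 and 2.37 FPKM in the controls, against 1.96, 0.61 and 0.23 FPKM after DEN+CCl4 (-0.68, -1.52 to 0.15). The row H2-K2, a transcribed pseudogene, read 4.98, 12.4 and 8.91 FPKM against 10.6, 31.6 and 1.86 FPKM, both the highest and the lowest library being treated ones.

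The other 8 heavy chain rows had means under 1 FPKM and were not tested. H2-M3, which presents N-formylated peptides, read 0.19, 0.49 and 0.51 FPKM in the controls, against 0.79, 1.17 and 0.41 FPKM after DEN+CCl4. The pseudogene H2-T-ps (0.04, 0.27 and 0.22 against 0.30, 0.73 and 1.46 FPKM) and H2-M2 (0, 0.03 and 0 against 0.04, 0.14 and 0.18 FPKM) had each treated library above each control. Their control values are near the floor. The share of non-overlapping genes was taken over tested genes only, so none stands beside these rows. H2-T24, H2-Q2, H2-M6-ps and H2-M5 stayed low in all 6 libraries, and H2-M10.6 was listed at 0 in all but control 3, at 0.03 FPKM.

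The make-up of the heavy chain pool can be read without regard to the scale of a library. Shares, ratios and the summed FPKM of class I heavy chains and of class II presenting chains, 28 in all, were computed after the values had been seen. They carry no test, and the sums do depend on scale. The groups overlapped in 25 of the 28, and the other 3 are the H2-Q10 share given here and the ratios of H2-Eb1 to H2-Ab1 and of Nlrc5 to Ciita given further on. Full separation of 3 against 3 libraries has an exact permutation p of 0.1, so some of the 28 would separate without any difference. H2-K1, H2-D1 and H2-Q10 together made up 89.3%, 81.4% and 87.0% of heavy chain FPKM in controls and 85.0%, 73.5% and 64.7% in DEN+CCl4 liver. H2-Q10 alone took 39.5%, 33.1% and 36.2% against 27.2%, 31.9% and 15.8%. Each treated library was below each control, with or without replicate 3, though by little in replicate 2. H2-K1 took 32.8%, 36.0% and 35.4% against 39.1%, 26.1% and 28.0%, and these overlapped. The share of H2-Q6 was 1.48%, 4.24% and 1.95% in controls and 2.34%, 7.65% and 16.1% in treated liver. In DEN+CCl4 replicate 3 H2-Q6 equalled H2-Q10, with a ratio of 1.02, where the other 5 libraries ran from 0.0375 to 0.24. H2-Q6 over its close relative H2-Q7 was 0.978, 1.89 and 1.37 in controls and 1.14, 1.91 and 6.34 in DEN+CCl4 liver, so that only replicate 3 lay far from the rest.

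**Figure D3:**
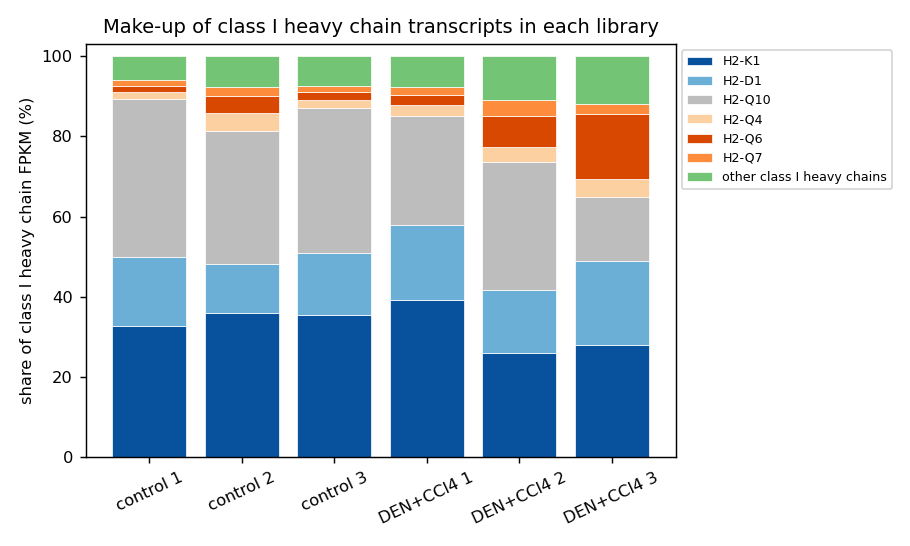
Share of the summed class I heavy chain FPKM (percent) taken by each gene in each library. H2-Q10 takes 15.8% and H2-Q6 16.1% in DEN+CCl4 replicate 3, while H2-K1 holds 26.1% to 39.1% across the 6 libraries.

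Heavy chain rows share sequence, which limits how far single rows can be told apart. Of the 31-base words in a gene's annotated transcripts, 1.99% to 67.4% also occurred in other genes over the 21 heavy chain rows (median 25.8%, 11 rows at 25% or more). For H2-Q6 the share was 51.8%, with H2-Q4 its closest gene at 24.6%, and for H2-Q10 30.3%, with H2-Q7 closest at 21.9%. H2-T22 shared 67.4% (47.2% with H2-T10), H2-D1 26.9% and H2-K1 22.8%. The 9 class II rows with H2- names had a median of 1.58%, and the pair H2-DMb1 and H2-DMb2 stood out at 31.4% and 36.6%. The sources used here do not say how the authors' counting divided such reads, so single rows of the H2-Q and H2-T genes are uncertain. Reads of H2-Q4 and H2-Eb1 can likewise not be told from those of antisense genes overlapping them (Gm11131 and Gm20513), since the use of strand is not stated.

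**Figure D4:**
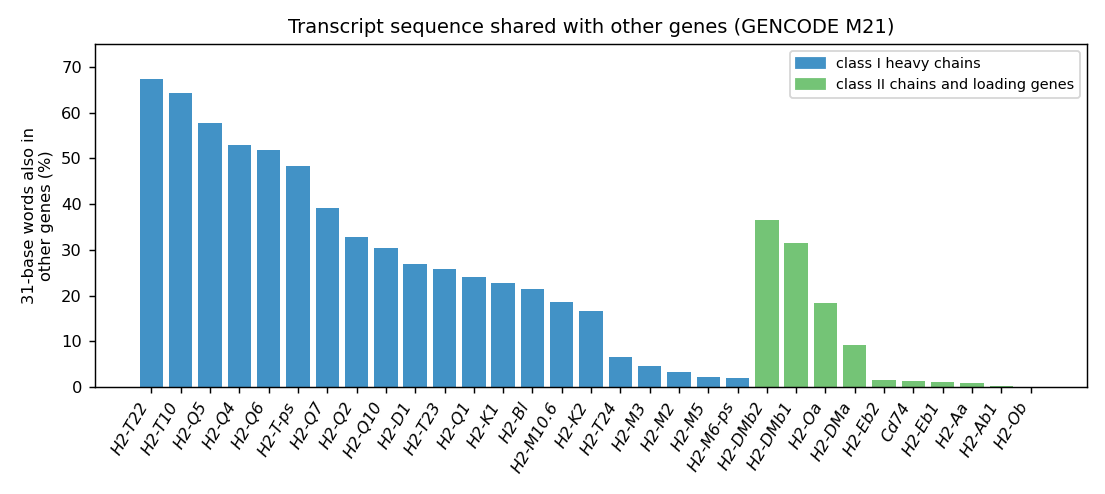
Percent of 31-base transcript words that also occur in another gene (GENCODE M21), for the class I heavy chain rows in blue and the class II chains and loading genes in green. H2-T22 is highest at 67.4%, and H2-Aa, H2-Ab1 and H2-Eb1 are all near 1% or below.

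B2m, the light chain of every class I molecule (chromosome 2, 122147686 to 122153083, plus strand), was the most abundant member. It read 2256, 1363 and 1976 FPKM in the controls, against 2001, 1846 and 747 FPKM after DEN+CCl4. Replicate 3 was lowest and the other treated libraries lay inside the control range (-0.38, -2.26 to 1.50; limma adjusted p = 0.996; 0.10 after scaling). B2m over the heavy chain sum was 2.22, 1.83 and 2.12 in controls and 2.13, 1.58 and 1.99 in DEN+CCl4 liver. The ratio thus varied far less than B2m itself and overlapped between the groups. Tapbp (33915899 to 33929292) read 17.2, 10.5 and 14.0 FPKM in the controls, against 15.1, 11.1 and 5.54 FPKM after DEN+CCl4, lowest in replicate 3. Its log2 fold change was -0.43 (-1.92 to 1.06), and 0.00177 after scaling.

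The peptide pump genes were low. Tap1 read 1.50, 2.74 and 2.33 FPKM in the controls, against 1.50, 2.97 and 2.84 FPKM after DEN+CCl4 (0.10, -0.88 to 1.07), and in replicate 3 it did not show the low level of most members. Tap2 read 3.19, 4.54 and 3.13 FPKM against 4.66, 5.10 and 2.09 FPKM (0.05, -1.07 to 1.17). Tap1 over Tap2 was 0.322 to 0.744 in 5 libraries and 1.36 in DEN+CCl4 replicate 3. Nlrc5, the class I transactivator (chromosome 8, 94434356 to 94527272), read 3.16, 8.39 and 4.95 FPKM in the controls, against 6.14, 8.97 and 1.94 FPKM after DEN+CCl4. Control 2 and DEN+CCl4 2 were its highest libraries and DEN+CCl4 3 its lowest (-0.05, -1.28 to 1.18; 0.30 after scaling).

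Of the class II presenting chains, H2-Aa and H2-Ab1 stayed close to each other. H2-Aa, the alpha chain of I-A (34282744 to 34287823, minus strand), read 21.1, 23.7 and 18.9 FPKM in the controls, against 25.8, 26.6 and 20.3 FPKM after DEN+CCl4. Replicates 1 and 2 lay just above the controls and replicate 3 among them (0.18, -1.51 to 1.87; limma adjusted p = 0.996). Its beta chain H2-Ab1 (34257689 to 34269419) read 22.98, 24.2 and 18.5 FPKM against 25.7, 26.2 and 15.6 FPKM (0.01, -1.67 to 1.69). H2-Ab1 over H2-Aa was 0.980 to 1.09 in controls and 0.995, 0.983 and 0.770 in treated liver. After scaling DEN+CCl4 replicates 1 and 2 held H2-Aa at 20.2 and 19.4 FPKM, within the control range of 15 to 20.5, while replicate 3 was at 57.0 FPKM.

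H2-Eb1 (34305867 to 34316674, plus strand) is the beta chain of I-E, which C57BL/6 mice do not display because their alpha chain gene is defective. It read 23.6, 29.4 and 23.2 FPKM in the controls, against 40.3, 42.8 and 20.7 FPKM after DEN+CCl4. Replicates 1 and 2 were above all controls and replicate 3 below them (0.37, -1.39 to 2.13; limma adjusted p = 0.996). After scaling all treated libraries were above, at 31.6, 31.2 and 58.1 against 20.2, 25.5 and 18.4 FPKM (0.84, -0.07 to 1.74; limma adjusted p = 0.477). H2-Eb1 over H2-Ab1 was 1.03, 1.22 and 1.25 in controls and 1.57, 1.63 and 1.33 in DEN+CCl4 liver. It was higher in each treated library than in each control, and without replicate 3 the gap was wider. H2-Eb2 was listed at 0 in 5 libraries and at 0.02 FPKM in DEN+CCl4 replicate 2.

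Cd74, the invariant chain, encoded on chromosome 18, did not run in parallel with the chains it guards. It read 85.8, 20.4 and 24.3 FPKM in the controls, against 34.5, 29.5 and 16.7 FPKM after DEN+CCl4. Control 1 was far above the other 5 libraries. The log2 fold change was -0.43 (-2.21 to 1.35; 0.03 after scaling), and without control 1 it was 0.20, or 0.67 after scaling. Cd74 over H2-Aa was 4.07 in control 1 and 0.824 to 1.34 elsewhere. The summed macrophage and Kupffer cell markers also stood highest in control 1 (188 FPKM against 42.7 to 127), and their part in the Cd74 value was not tested.

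H2-DMa and H2-DMb1, the chains that exchange peptide on class II, were low and even. H2-DMa read 3.25, 2.57 and 2.80 FPKM in the controls, against 3.00, 3.33 and 1.97 FPKM after DEN+CCl4 (-0.05, -1.09 to 0.98). H2-DMb1 read 2.97, 2.65 and 2.54 FPKM against 3.33, 3.09 and 2.25 FPKM (0.06, -0.98 to 1.09). H2-DMb2, and H2-Oa and H2-Ob, whose product H2-O restrains H2-DM, had means under 1 FPKM and were not tested, with a range over both groups of 0.13 to 1.13 FPKM. Ciita (chromosome 16, 10480059 to 10528418) read 0.15, 0.35 and 0.16 FPKM in the controls, against 0.35, 0.49 and 0.25 FPKM after DEN+CCl4, below the filter and with overlap. Nlrc5 over Ciita was 21.1, 24 and 30.9 in controls and 17.5, 18.3 and 7.76 in treated liver. The ratio was lower in each treated library than in each control, also without replicate 3, but it rests on Ciita values of less than 1 FPKM.

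**Figure D5:**
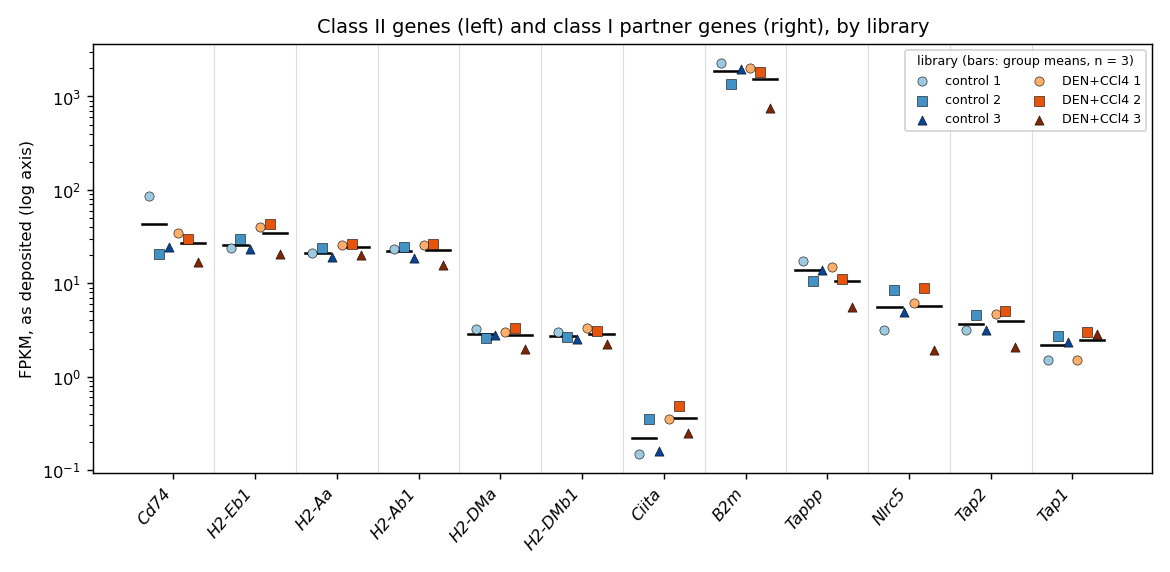
FPKM as deposited (log axis) of the tested class II members, Ciita and the class I partners in each library, with bars at the group means (n = 3). Control 1 stands out for Cd74 at 85.8 FPKM, and for H2-Aa and H2-Ab1 the 6 libraries lie between 15.6 and 26.6 FPKM.

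Other genes of antigen presentation were taken from 6 lists and likewise had 0 members called by limma in either direction, as deposited or after scaling. Of these lists, the endoplasmic reticulum helpers of class I loading had 8 tested members (median log2 fold change -0.28, 0.15 after scaling). Its most abundant were the chaperone Calr, at 245, 148 and 218 FPKM in the controls, against 210, 220.5 and 42.3 FPKM after DEN+CCl4, and Pdia3, which works with tapasin (22.7 to 73.1 FPKM over the 6 libraries). The immunoproteasome, which cuts peptides for class I, had 5 of 5 tested (-0.55, -0.17 after scaling). Its activators Psme1 (20.6, 17.2 and 19.1 against 24.5, 14.1 and 6.48 FPKM) and Psme2 (5.50 to 21.1 FPKM over all) were its highest, and the summed FPKM of both lists overlapped between the groups. Class II processing had 7 of 9 listed rows tested (-0.06, 0.41 after scaling), led by the lysosomal proteases Ctsb, at 12.4 to 71.2 FPKM, and Ctsd, the latter at 60.4, 26.8 and 56.7 against 51.4, 51.5 and 30.7 FPKM.

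The list of enhanceosome and interferon gamma genes had 13 of 17 rows tested as deposited (-0.07, 0.33 after scaling). After scaling Rfx5 and Nfya fell short of the filter. Limma then had 1 row at an unadjusted p under 0.05, Ifngr1, which was higher (1.03, limma adjusted p = 0.453). Over all genes 5.60% were higher and 5.13% lower at that threshold. The most abundant rows of the list were Rfxank, a subunit of the X box binding factor RFX (1.88 to 14.9 FPKM), and Nfyc, a subunit of the CCAAT-binding factor NF-Y. Nfyc read 6.75, 9.80 and 8.60 FPKM in the controls, against 6.81, 5.78 and 0.88 FPKM after DEN+CCl4 (-1.0, limma adjusted p = 0.871). Ifng itself was at 0.10 FPKM or less in all 6 libraries. The co-stimulators had 1 of 5 tested, Icosl, at 0.32, 0.55 and 0.38 against 1.13, 3.56 and 0.25 FPKM, followed by Cd274 at 0.24 to 0.74 FPKM. With a control mean of 0.417 FPKM, Icosl reached the filter only through the treated libraries. The co-stimulator sum was 0.92 to 1.56 FPKM in controls and 1.72 to 4.79 FPKM after DEN+CCl4. Each treated library was above each control, also after scaling, at low values, while Cd86 had the lower mean as deposited. MHC-like genes outside H2 had 4 of 7 tested, with a median of -1.11 (-0.65 after scaling). Among them Cd1d1, which presents lipids to NKT cells, read 37.3, 76.2 and 50.03 FPKM in the controls, against 28.0, 14.7 and 3.17 FPKM after DEN+CCl4. All treated libraries lay below the controls, as deposited and after scaling, but the difference did not pass (-2.10, limma adjusted p = 0.374; -1.69, 0.453 after scaling). Azgp1, the most abundant of the list, read 894, 735 and 993 against 919, 577 and 134 FPKM.

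In bulk liver fewer cells of a type and less RNA per cell cannot be told apart, so markers of the cell types that carry class II were read beside the members. The liver label was checked on hepatocyte markers, with Alb at 7482 to 24459 FPKM, Apoa1 at 4111 to 35125 FPKM, and all 6 listed markers above 0 in all libraries. Conventional dendritic cell markers were near 0, with 0 of 8 tested, sums of 1.47 to 3.09 FPKM in controls and 1.64 to 5.02 in DEN+CCl4 liver, and 3 of 8 at 0 in at least 1 library (Xcr1, Cd209a and Itgae). Clec9a was the highest of them, at 0.17 to 1.58 FPKM. Itgax came next, at 0.21, 0.41 and 0.28 FPKM in the controls, against 0.54, 1.14 and 0.49 FPKM after DEN+CCl4, each treated library above each control, also after scaling. All other markers of this list overlapped between the groups. Xcr1 (mean 0.113 and 0.0933 FPKM), Cd209a (0.103 and 0.07 FPKM) and Itgae (0.04 and 0.0367 FPKM) had the lower mean after DEN+CCl4 as deposited. B cell markers had 1 of 6 tested, Cd79a (0.33 to 3.39 FPKM over the 6 libraries, ahead of Cd79b), and their sum was lowest in DEN+CCl4 replicate 3 (0.96 against 4.22 to 6.31 FPKM elsewhere), where Ms4a1 was at 0, as in control 1. Macrophage and Kupffer cell markers had 8 of 10 tested, 0 called, and summed to 72.9 to 188 FPKM in controls and 42.7 to 127 FPKM in treated liver. In that list Timd4, which was not tested, and Marco lay below all controls in each treated library as deposited, as did 5.35% of all tested genes. After scaling Timd4 still lay below them and Marco overlapped. C1qa (7.67 to 51.1 FPKM) and C1qb (15.4 to 40.5 FPKM), the most abundant of the list, overlapped.

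T and NK cell markers summed to 2.13 to 2.50 FPKM in the controls, against 3.43, 4.60 and 5.40 FPKM after DEN+CCl4, with each treated library above each control, also after scaling. No matching share over all genes stands beside this sum, and all rows but Nkg7 had means under 1 FPKM. Only Nkg7 of the 9 was tested (0.43, limma adjusted p = 0.996). With a control mean of 0.977 FPKM, it reached the filter only through the treated libraries. Cd8b1 followed at 0 to 0.21 FPKM in controls and 0.39 to 1.31 FPKM after DEN+CCl4, and it and Ncr1 were at 0 in at least 1 library. Cd8a, the coreceptor for class I, read 0.10, 0.18 and 0.04 FPKM in the controls, against 0.49, 0.91 and 0.70 FPKM after DEN+CCl4. Of the other markers Cd4 (mean 0.393 and 0.330 FPKM) and the NK cell markers Klrb1c (0.0967 and 0.0567 FPKM) and Ncr1 (0.0667 and 0.0233 FPKM) had the lower mean after DEN+CCl4, with overlap. Stellate cell and fibroblast markers had 5 of 7 tested, 0 called, and summed to 7.48 to 11.8 FPKM against 13.6 to 35.0 FPKM. Its most abundant were Dcn, at 1.99 to 6.45 FPKM over all libraries, and Acta2, at 1.08 to 1.58 FPKM in controls and 2.87 to 10.9 FPKM after DEN+CCl4. Lrat of this list went the other way, at 0.58, 0.46 and 0.40 FPKM against 0.31, 0.35 and 0.15 FPKM as deposited, and overlapped after scaling. Dcn also had the lower mean as deposited (4.77 and 4.57 FPKM), and the rest of the list the higher one. The neutrophil list held the 1 marker that passed, S100a8, which rose from 0.76, 0.42 and 0.34 to 3.19, 1.38 and 8.96 FPKM (1.63 on the log2 scale, limma adjusted p = 0.0336; 2.0, limma adjusted p = 0.459, after scaling). Its control mean was 0.507 FPKM, so it reached the filter only through the treated libraries, and with no filter limma called 0 genes. S100a9 read 1.30 to 3.72 FPKM in controls and 3.64 to 12.4 FPKM after DEN+CCl4. Monocyte markers (1 of 5 tested) summed to 0.59 to 1.92 FPKM in controls and 1.62 to 6.83 FPKM in treated liver, and sinusoidal endothelial markers (5 of 6 tested) to 13.0 to 22.7 and 10.7 to 29.6 FPKM. Their most abundant were Cd14 (0.27 to 6.19 FPKM) and Ly6c2 (0.06 to 0.28 FPKM), and Clec4g (2.33 to 8.84 FPKM) and Stab1 (2.53 to 10.7 FPKM). Cholangiocyte markers (2 of 5 tested, Spp1 and Krt19) summed to 9.20 to 16.4 and 14.5 to 34.0 FPKM, most of it Spp1 (8.20 to 27.4 FPKM over all libraries). Epcam of that list read 0.22, 0.21 and 0.17 FPKM in the controls, against 0.11, 0.10 and 0 FPKM after DEN+CCl4. It lay below all controls in each treated library, also after scaling, and the rest of the list overlapped. Plasmacytoid dendritic cell markers summed to 35.0 to 108 and 13.7 to 98.7 FPKM, nearly all of it Bst2, with Klk1 next at 0.28 FPKM or less. The part of these cells in the MHC values was not tested. Among tested genes of any kind, 3.01% lay wholly above the controls and 5.35% wholly below as deposited. After scaling these shares were 8.07% and 6.43%.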

How the data were processed

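Poly(A) RNA was sequenced by the authors in 6 liver libraries, 3 control and 3 DEN+CCl4. The values are FPKM, which the authors deposited as a single table holding each library in a column of its own, per the file headers. HISAT, StringTie and GRCm38 were used, per the submitters' processing notes, and the sources used here give no versions, annotation or strand use. Low values held no step worth 1 read (25.1% to 29.6% lay within 0.1 of a multiple of the best step, where 20% would by chance), so depth is unknown and no counting interval was possible.

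Genes averaging at least 1 FPKM were tested on log2(FPKM + 1) with limma 3.58.1 in R 4.3.3 (empirical Bayes with trend, two-sided), with Benjamini-Hochberg adjustment across 8528 genes and a threshold of 0.05. The fit was tested on simulated data. Fold changes on this scale understate those of low genes. Word sharing and positions came from GENCODE M21, promoters from RefSeq, with Python 3.11.15 and pandas 2.3.3. The members and lists were chosen with earlier results of these data known. Any member could be named, those with a mean of at least 5 FPKM with all values, and of each other list the 2 most abundant and any past the threshold. Further genes of those lists, and lower members given with all values, were named after their values were seen. Alternatives were other pseudocounts (0.1 and 0.01), no filter or one at 5 FPKM, other scalings, no trend, a replicate block and leaving out each library. Mitochondrial genes with their 7 nuclear copies were left out as an alternative chosen after seeing the data. Same-numbered libraries of the 2 groups did not all deviate together, so they were not treated as pairs.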

Additional observations from a re-analysis of the deposited data

How the results depend on the processing

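Of the MHC members, 0 passed limma's test under any alternative run, with 1 exception. With median-ratio scaling and without DEN+CCl4 replicate 1, class I had 3 members higher: H2-Q6 (log2 fold change 2.53, limma adjusted p = 0.0391), H2-T10 (1.10, 0.0455) and H2-Q1 (1.15, 0.0274; a row that reached the filter only through its treated libraries), while 318 genes in all were called higher and 357 lower. Under the other settings limma's adjusted p ran from 0.400 to 1.0 for H2-Q6. The count of class I members called higher thus ran from 0 to 3 when libraries were left out, and that for class II stayed at 0. The class II median of 0.03 moved to 0.45 with median-ratio scaling and to 0.46 when mitochondrial genes and their copies were left out. With scaling and 1 library left out it was 0.58, 0.50 and 0.33 without controls 1, 2 and 3, and 0.60, 0.68 and 0.07 without DEN+CCl4 replicates 1, 2 and 3, and without scaling from -0.06 to 0.21. The class I median ran from -0.16 (without DEN+CCl4 replicate 2) to 0.44 as deposited and from 0.28 to 0.68 scaled. Of the 24 members, 6 changed sign with median-ratio scaling and 0 with another pseudocount, no trend or a filter. Without 1 library 2 to 8 did, the 8 (of 23 then tested) without DEN+CCl4 replicate 2. With the replicate number as a block 0 class I and 0 class II members were called, either way, at a smallest adjusted p of 1.0. The correlations of deviations of same-numbered libraries were 0.07, 0.42 and -0.15. Over all genes the calls, 71 higher and 55 lower, became 62 and 32 with the block, 6 and 3 at a pseudocount of 0.1 or without mitochondrial genes, 4 and 0 at 0.01, 14 and 53 with a filter at 5 FPKM, 120 and 272 without DEN+CCl4 replicate 1, 22 and 13 without replicate 2, and 7 to 11 and 5 to 9 without 1 control. They were 0 and 0 without a filter, without the trend, with median-ratio scaling, without mitochondrial genes and their copies, and without DEN+CCl4 replicate 3. With 3 libraries a group, an unknown depth and 1 library of another scale, differences smaller than the intervals given could not be seen.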
